A study of Homo sapiens with 12 samples.

Results

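The 10 genes of amino acid synthesis and transport described here were followed through the silencing of CPSF6 and through transcription arrest in HepG2 cells, an established human liver cancer line. They are PHGDH, PSAT1 and PSPH, SHMT2 and MTHFD2, ASNS, and the transporter genes SLC7A5, SLC3A2, SLC7A11 and SLC1A5, taken by name as metabolic genes that respond to the transcription factor ATF4. All 10 were present among the 22148 genes of the deposited tables, and all 10 passed the filter on low values that left 12939 genes for testing. The study held 12 RNA libraries in 6 groups of 2 biological replicates: cells given siRNA against CPSF6 (si-CPSF6) and cells given a control siRNA (si-NC), each at 0, 3 and 6 h in actinomycin D at 5 µg/ml. Both arms were transfected 48 h earlier, so both carried an siRNA, and the drug was common to both arms at 3 h and at 6 h. CPSF6 is a subunit of cleavage factor Im, a complex that takes part in choosing where the 3′ end of a transcript is cut and polyadenylated. Actinomycin D blocks transcription, and such a time course is meant to follow RNA made before the drug was added. How far the block held for each gene was not tested.

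The serine pathway starts from a glycolytic intermediate: PHGDH makes the first committed step, PSAT1 adds the amino group and PSPH releases serine. SHMT2 then splits serine inside mitochondria and hands its carbon to folate, and MTHFD2 oxidises that folate-bound unit. ASNS makes asparagine from aspartate and glutamine. SLC7A5 and SLC7A11 are light chains that share the heavy chain SLC3A2, the first pair importing large neutral amino acids and the second exchanging glutamate for cystine, and SLC1A5 carries glutamine and other small neutral amino acids. When amino acids run short or another stress phosphorylates the initiation factor eIF2, translation of ATF4 mRNA goes up and ATF4 binds composite elements near such genes. PHGDH and ASNS are known for raised expression in some tumours.

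The core letters of such an element, TGATGNAA, were sought on both strands in the RefSeq promoter table (build GRCh38.p14, 300 bases per window, 250 of them before a start site). The table held 12 windows for 7 of the 10 genes, namely PHGDH, MTHFD2, ASNS, PSAT1, SLC3A2, SLC7A5 and SLC1A5. Matches were found in 3 of these 12 windows, in 3 genes, while 1270 of all 35116 windows, or 3.62%, held the letters. All 3 matches are shown, whatever the difference of the gene between the arms. In their change over 6 h of the drug ASNS and SLC1A5 differed between the arms, and SLC3A2 did not. MTHFD2, PHGDH and SLC7A5 differed too and had windows without a match, and SLC7A11 and SHMT2 differed and had no window. PSAT1 had a window without a match, PSPH had no window, and neither differed. ASNS, SLC1A5 and SLC3A2 each also had another window without a match. Capitals mark the match, and 30 bases are given 5′ to 3′ along the gene's strand.
ASNS: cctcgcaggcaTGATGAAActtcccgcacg
SLC1A5: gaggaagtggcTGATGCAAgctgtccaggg
SLC3A2: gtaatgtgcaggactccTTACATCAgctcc
The ASNS site lies at chr7:97872458-97872487 on the minus strand, with the match starting 68 bases before the annotated start. The SLC1A5 site lies at chr19:46784893-46784922 on the minus strand, 97 bases before a start that lies inside the gene. The SLC3A2 site lies at chr11:62881719-62881748 on the plus strand, 37 bases after a start, and carries the match on the other strand. In GENCODE 29 all 3 sites overlap an exon and an untranslated region annotated for their own gene. A match describes letters in a window and was not tested as a binding site.

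The libraries showed the silencing that their labels state. CPSF6 had 768 and 718 normalized counts in si-CPSF6 cells at 0 h, against 2147 and 2082 in si-NC cells, a log2 difference of -1.51 ± 0.09 (SE; limma adjusted p = 1.3e-08). It had 674 and 801 in si-CPSF6 cells at 3 h against 3389 and 3309 in si-NC cells, and at 6 h 810 and 732 in si-CPSF6 cells against 3469 and 3443 in si-NC cells. All 8 hepatocyte-type markers looked for were detected. Of these, 5 differed between the arms at 0 h, beside 42.9% of all tested genes called (21.8% higher and 21.1% lower). TTR (1.07), FGB (1.09) and APOB (0.71) were higher and HNF4A (-0.75) and SERPINA1 (-0.46) lower in si-CPSF6 cells. Of the stromal, endothelial and immune markers reported, PTPRC, CD3E, COL1A2, DCN and LUM had no entry in the tables, and COL1A1, PECAM1 and VWF had between 0 and 77 normalized counts in a library. COL1A1 had 23 and 41 in si-CPSF6 cells at 0 h, against 9 and 16 in si-NC cells (log2 1.28, adjusted p = 0.0093), and the part of such RNA in the results below was not tested. MYC, whose short-lived mRNA was singled out after its values were seen, had 214 and 166 normalized counts at 6 h in si-CPSF6 cells, against 5448 and 4714 at 0 h. In si-NC cells MYC had 143 and 154 at 6 h and 149 and 102 at 3 h, against 3230 and 3161 at 0 h. The sums of normalized counts ran between 19133288 and 33352246 per library, higher at later times, and spike-in RNA made up 1.125 to 1.429% of each sum.

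At 0 h the 10 genes spanned a 70.1-fold range of mean TPM in si-CPSF6 cells and a 150.9-fold range in si-NC cells (transcript abundance per length, scaled to one total in each library). SLC3A2 stood highest, at 224.4 ± 8.89 TPM in si-CPSF6 cells and 227.6 ± 15.61 TPM in si-NC cells (SD, n = 2 each, as for every mean below). SLC7A11 stood lowest, at 3.2 and 3.2 TPM in the si-CPSF6 libraries and 1.5 and 1.5 TPM in the si-NC libraries, next to ASNS at 21.5 and 18.5 TPM in si-CPSF6 libraries and 18.3 and 15.6 TPM in si-NC libraries. The order from the top in si-CPSF6 cells was SLC3A2, SLC7A5, SHMT2, PSAT1, SLC1A5, PHGDH, MTHFD2, PSPH, ASNS and SLC7A11. In that order SHMT2 and PSAT1 overlapped, as did SLC1A5 and PHGDH. In si-NC cells the order was SLC3A2, PSAT1, SLC7A5, PHGDH, SHMT2, SLC1A5, PSPH, MTHFD2, ASNS and SLC7A11, with overlaps between PSAT1 and SLC7A5, PHGDH and SHMT2, and SLC1A5 and PSPH. MTHFD2 therefore stood above PSPH in si-CPSF6 cells and below it in si-NC cells.

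**Figure D1:**
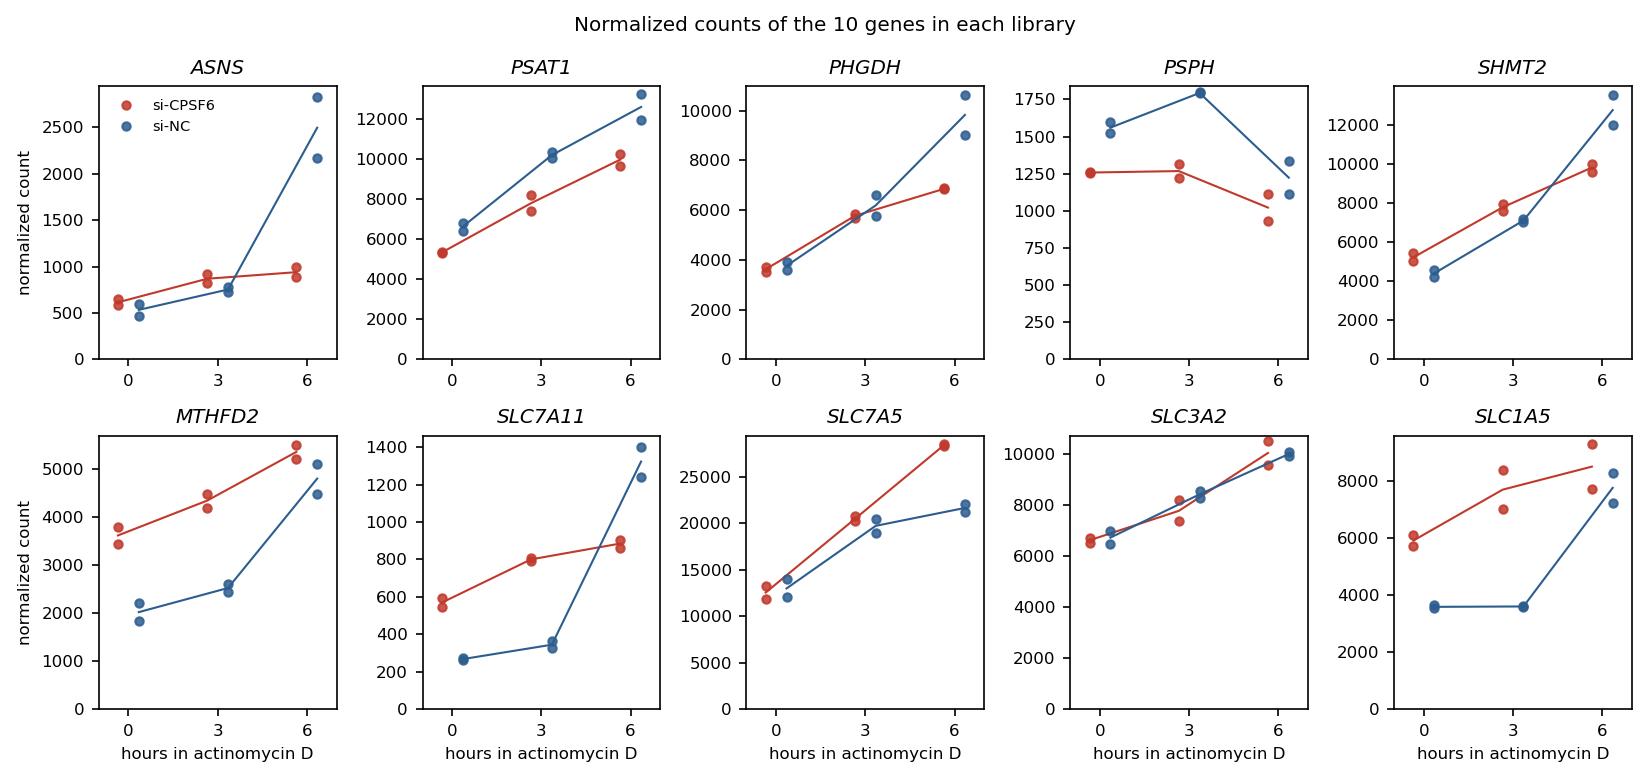
Normalized counts (y axis, linear from 0) of each gene against hours in actinomycin D, with si-CPSF6 in red at the left and si-NC in blue at the right of each time; points are single libraries and lines join the means of 2. ASNS, SLC7A11, MTHFD2 and SLC1A5 bend upward between 3 h and 6 h in si-NC cells, and SLC7A11, MTHFD2 and SLC1A5 start higher in si-CPSF6 cells.

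The first comparison asks how silencing CPSF6 changed the genes while transcription ran. At 0 h SLC7A11, MTHFD2, SLC1A5 and SHMT2 were higher in si-CPSF6 cells, PSAT1 and PSPH were lower, and ASNS, PHGDH, SLC7A5 and SLC3A2 did not pass the threshold (limma, adjusted p under 0.05 over all genes tested). The 6 genes called out of 10 stand beside 42.9% of all tested genes called in this comparison, 21.8% higher and 21.1% lower. At 3 h 3 genes were higher and 2 lower, beside 55.3% of all genes called, 26.2% higher and 29.1% lower. At 6 h 1 gene, SLC7A5, was higher and 6 were lower, beside 55.7% called, 27% higher and 28.6% lower. The median difference of the 10 genes was 0.097 at 0 h, 0.093 at 3 h and -0.298 at 6 h on the log2 scale, against 0.002, -0.028 and -0.025 for all genes tested. Spike-in scaling moved the median of all genes at 0 h to -0.131 and the higher share of calls to 31.2%, against 50.8% as deposited; at 6 h that share was 59.9% in TPM and 48.5% as deposited, and at 3 h 58.1% and 47.4%.

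**Figure D2:**
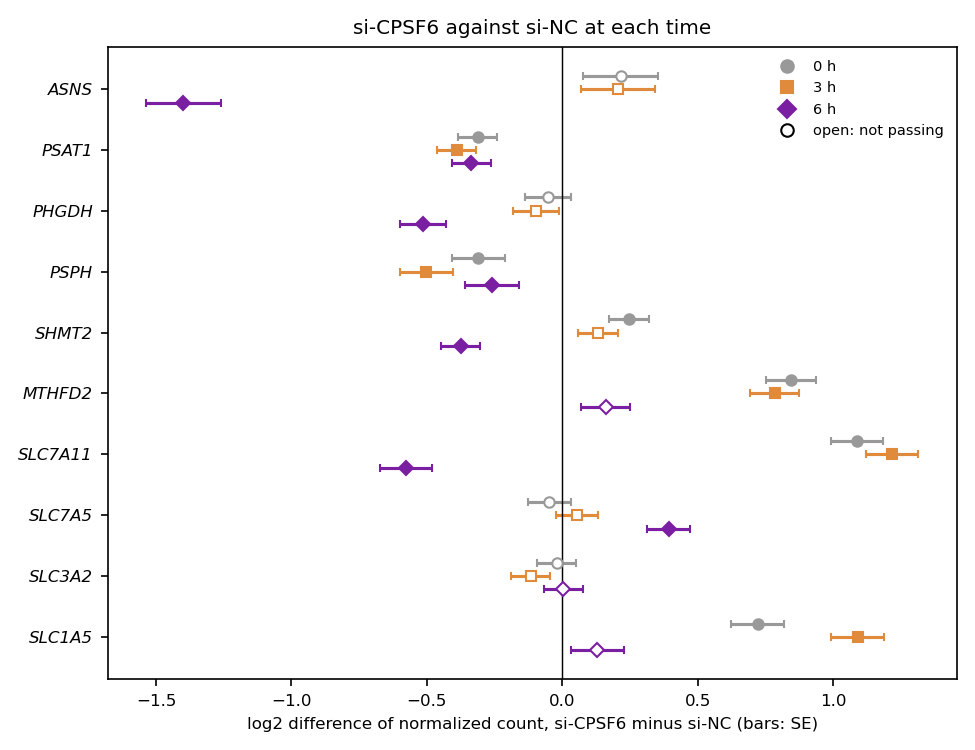
Log2 difference of normalized count, si-CPSF6 minus si-NC (x axis), for each gene (y axis) at 0 h (grey circles), 3 h (orange squares) and 6 h (purple diamonds), with SE bars and open symbols where the adjusted p missed 0.05. ASNS and SLC7A11 lie furthest left at 6 h, at -1.40 and -0.58, while SLC7A11, MTHFD2 and SLC1A5 lie right of 0 at 0 h and 3 h.

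Among the serine synthesis genes, PSAT1 and PSPH were lower in si-CPSF6 cells at every time, and PHGDH passed at 6 h. PSAT1 had 5309 and 5336 normalized counts in si-CPSF6 cells at 0 h, against 6415 and 6801 in si-NC cells. The groups did not overlap at any time, and the log2 difference was -0.31 ± 0.07 at 0 h, -0.39 at 3 h and -0.34 at 6 h (adjusted p = 0.0028, 0.00034 and 0.001). PSPH had 1253 and 1262 in si-CPSF6 cells at 0 h, against 1525 and 1595 in si-NC cells, a log2 difference of -0.31 ± 0.10 (adjusted p = 0.019). At 3 h PSPH had 1220 and 1315 in si-CPSF6 cells, against 1797 and 1790 in si-NC cells (-0.50, adjusted p = 0.00054). At 6 h it had 928 and 1115 in si-CPSF6 cells, against 1112 and 1334 in si-NC cells, and the libraries overlapped (-0.26, adjusted p = 0.035). The 0 h call of PSPH was lost on leaving out any single 0 h library (adjusted p up to 0.11), and its 6 h call without si-CPSF6 replicate 1 (-0.13) or si-NC replicate 2 (-0.13). On the TPM scale the 6 h difference of PSPH was -0.01 (adjusted p = 0.93). PHGDH, the enzyme of the first step, did not pass at 0 h (-0.05, adjusted p = 0.65), with 3730 and 3508 in si-CPSF6 cells against 3928 and 3583 in si-NC cells. At 6 h it was 1.43-fold lower, at 6876 and 6834 in si-CPSF6 cells against 10633 and 9018 in si-NC cells (log2 -0.51 ± 0.09, adjusted p = 0.00012).

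The mitochondrial one-carbon genes were higher in si-CPSF6 cells at 0 h, and at 6 h SHMT2 was lower there and the difference of MTHFD2 was smaller. MTHFD2 had 3787 and 3446 normalized counts in si-CPSF6 cells at 0 h, against 2200 and 1839 in si-NC cells, so that every si-CPSF6 library lay above every si-NC library. The difference was 1.80-fold (log2 0.84 ± 0.09, adjusted p = 4.9e-06) and was 1.72-fold at 3 h (4489 and 4194 in si-CPSF6 cells, against 2606 and 2437 in si-NC cells). At 6 h MTHFD2 had 5507 and 5205 in si-CPSF6 cells against 5113 and 4486 in si-NC cells, a log2 difference of 0.16 ± 0.09 that missed the threshold (adjusted p = 0.15). It passed there with replicates paired (adjusted p = 0.022) and in TPM (0.42, adjusted p = 0.0051). SHMT2, which feeds MTHFD2 its substrate, had 5419 and 5021 at 0 h in si-CPSF6 cells against 4584 and 4214 in si-NC cells (log2 0.25 ± 0.07, adjusted p = 0.013). That call was lost under spike-in scaling (0.11, adjusted p = 0.59), without si-CPSF6 replicate 1 (0.19) and without si-NC replicate 2 (0.19). At 3 h the difference of SHMT2 was 0.13 (adjusted p = 0.14; 0.036 with replicates paired). At 6 h SHMT2 was lower in si-CPSF6 cells, with 10019 and 9606 against 13521 and 11978 in si-NC cells (-0.38, adjusted p = 0.00048).

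ASNS, the asparagine synthetase gene, showed the widest gap of the 10 at 6 h and none that passed before it. At 0 h it had 646 and 582 normalized counts in si-CPSF6 cells against 601 and 464 in si-NC cells, and at 3 h 914 and 822 in si-CPSF6 cells against 782 and 722 in si-NC cells. The differences of 0.22 and 0.21 missed the threshold (adjusted p = 0.23 and 0.22) and passed it with replicates paired (0.039 at both times). At 6 h ASNS had 991 and 887 in si-CPSF6 cells, against 2828 and 2165 in si-NC cells. That is 2.64-fold lower with silencing (log2 -1.40 ± 0.14, adjusted p = 1.6e-06), and the libraries lay far apart. Exons of ASNS share their strand with a long noncoding gene, AC079781.5, so reads could have been split between the 2 by the counting.

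Of the transporter genes, SLC7A11 and SLC1A5 were higher with silencing at 0 h and 3 h, SLC7A5 was higher at 6 h, and SLC3A2 passed at no time. SLC7A11, the cystine carrier, had 593 and 545 normalized counts at 0 h in si-CPSF6 cells against 273 and 261 in si-NC cells, and at 3 h 807 and 793 in si-CPSF6 cells against 364 and 324 in si-NC cells. It was 2.13-fold higher at 0 h (log2 1.09 ± 0.10, adjusted p = 7.8e-07) and 2.33-fold higher at 3 h (adjusted p = 1.3e-07). At 6 h the order was turned: 863 and 906 in si-CPSF6 cells, against 1403 and 1242 in si-NC cells (1.49-fold lower, log2 -0.58, adjusted p = 0.00013). SLC1A5, the glutamine carrier, was likewise higher early, with 6094 and 5720 at 0 h in si-CPSF6 cells against 3638 and 3525 in si-NC cells, and at 3 h 8359 and 7016 in si-CPSF6 cells against 3608 and 3583 in si-NC cells. Its difference was 1.65-fold at 0 h (log2 0.72 ± 0.10, adjusted p = 5.5e-05) and 2.13-fold at 3 h (adjusted p = 6.6e-07). At 6 h the groups overlapped, at 9285 and 7704 in si-CPSF6 cells and 8286 and 7215 in si-NC cells (0.13, adjusted p = 0.28). SLC7A5 had 11873 and 13211 in si-CPSF6 cells at 0 h against 12015 and 13945 in si-NC cells, and at 3 h 20742 and 20184 in si-CPSF6 cells against 18940 and 20486 in si-NC cells. The groups overlapped at both times and neither difference passed (adjusted p = 0.66 and 0.57). At 6 h SLC7A5 was 1.31-fold higher in si-CPSF6 cells, at 28561 and 28254 against 22046 and 21233 in si-NC cells (log2 0.39 ± 0.08, adjusted p = 0.00059). Its partner SLC3A2 had differences of -0.02, -0.12 and 0.00, and its groups overlapped at 0 h and at 6 h. Opposite-strand exons overlap SHMT2, MTHFD2, SLC7A11, SLC7A5 and SLC1A5, and the libraries were strand-specific.

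The time course compares RNA levels before and after the drug was added, and its outcome depends on the scale. On the deposited upper quartile scale 9 of the 10 genes were higher at 6 h than at 0 h and PSPH was lower, in si-CPSF6 cells and in si-NC cells alike. All 10 were called in each arm, beside 77.4% of all genes in si-CPSF6 cells (49.8% higher and 27.6% lower) and 79.3% in si-NC cells (48.6% higher and 30.7% lower). The median of all genes itself moved by 0.354 in si-CPSF6 cells and by 0.305 in si-NC cells on that scale, by -0.321 and -0.429 in TPM, and by -0.501 and -0.653 when libraries were scaled by spike-in. Of called genes, 64.3% were higher in si-CPSF6 cells and 61.3% in si-NC cells as deposited, against 10% and 15.1% by spike-in. Spike-in RNA was added to a fixed 5 µg of total RNA, so it follows mRNA per mass of RNA, and fewer cells and less RNA per cell cannot be told apart.

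Of the 10 genes, ASNS and SLC7A11 had the largest increases in si-NC cells on each of the 4 scales. ASNS was 4.68-fold higher at 6 h than at 0 h in si-NC cells (log2 2.23 ± 0.14, adjusted p = 2.3e-09) and 1.53-fold higher in si-CPSF6 cells (0.61, adjusted p = 0.001). SLC7A11 was 4.93-fold higher in si-NC cells (2.30 ± 0.10, adjusted p = 1.8e-11) and 1.55-fold higher in si-CPSF6 cells (0.64, adjusted p = 2.3e-05). By spike-in the changes in si-NC cells were 1.26 for ASNS and 1.34 for SLC7A11, and those in si-CPSF6 cells turned to -0.25 and -0.22 without passing. Whether RNA made after the drug was added had a part in these increases was not tested. PHGDH and SHMT2 were also higher at 6 h in si-NC cells on each scale, by 0.42 and 0.57 at the least, in spike-in scaling (adjusted p = 0.0085 and 0.00036). In si-CPSF6 cells MTHFD2 changed by 0.57 as deposited and by -0.32 in TPM (adjusted p = 3.9e-05 and 0.013), and SLC1A5 by 0.52 as deposited and by -0.24 in TPM and -0.34 by spike-in (adjusted p = 0.00024, 0.041 and 0.032). In si-NC cells SLC3A2 changed by 0.57 as deposited and by -0.26 in TPM and -0.39 by spike-in (adjusted p = 2.1e-06, 0.014 and 0.019). PSPH was lower at 6 h in both arms on every scale, by -0.31 in si-CPSF6 cells and -0.36 in si-NC cells as deposited and by -1.17 and -1.32 by spike-in. As deposited, its call was lost without si-CPSF6 6 h replicate 1 (-0.17) in that arm and without si-NC 6 h replicate 1 (-0.23) in the other.

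**Figure D3:**
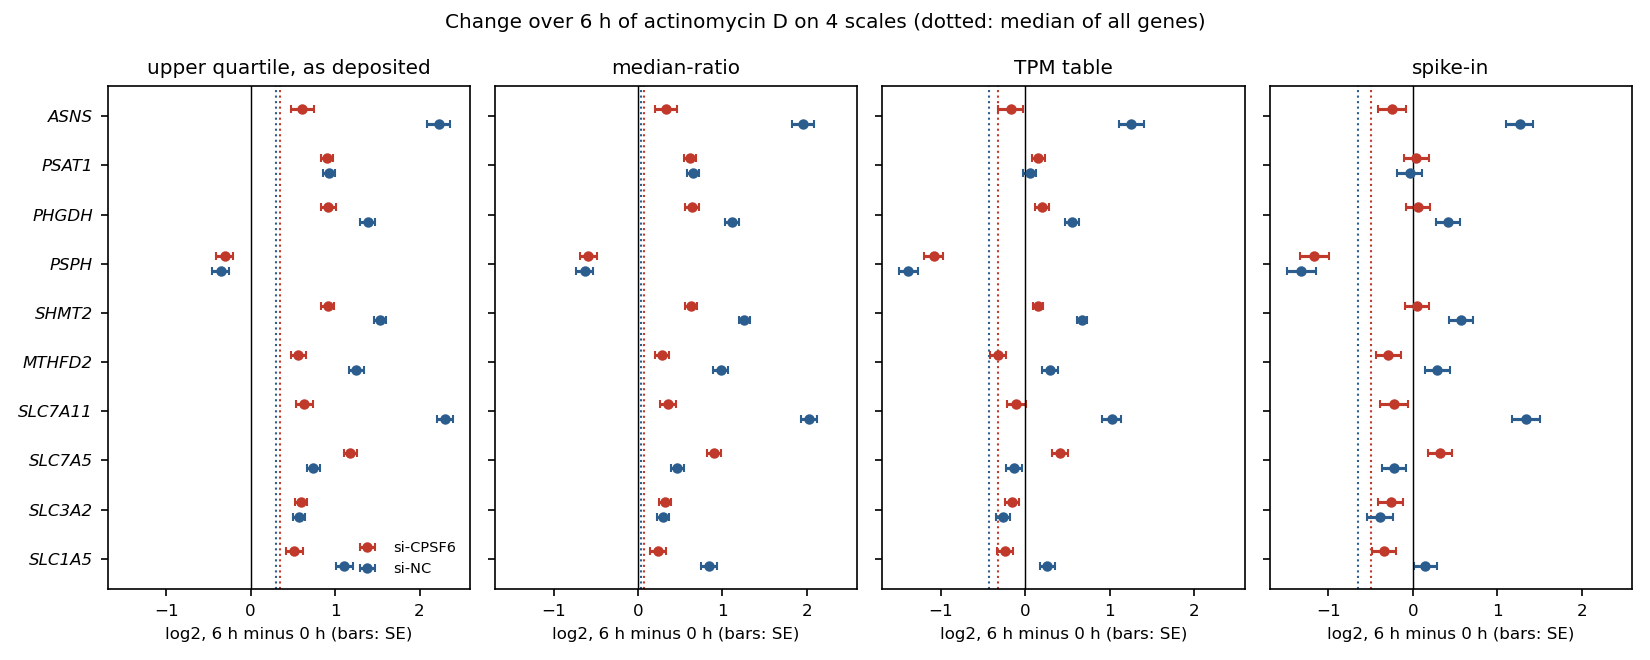
Log2 change from 0 h to 6 h (x axis, SE bars) of each gene (y axis) in si-CPSF6 (red, upper point) and si-NC (blue, lower point) on 4 scales, with dotted lines at the median of all genes in each arm. ASNS and SLC7A11 in si-NC lie to the right of the other points on every scale, and the medians lie right of 0 as deposited and left of 0 in TPM and by spike-in.

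The difference between the arms in this change was tested directly. Of the 10 genes, 6 changed less in si-CPSF6 cells than in si-NC cells and SLC7A5 changed more, beside 24.4% of all genes called (12% higher and 12.4% lower). The higher share of calls was 49.1% as deposited, 78.9% by spike-in and 64.4% in TPM. The difference of the 6 h change was -1.67 ± 0.14 for SLC7A11 (adjusted p = 1.7e-06), -1.61 ± 0.19 for ASNS (6.9e-05), -0.68 ± 0.13 for MTHFD2 (0.0015) and -0.62 ± 0.10 for SHMT2 (0.0006). It was -0.59 ± 0.14 for SLC1A5 (0.0074), -0.46 ± 0.12 for PHGDH (0.012) and 0.44 ± 0.11 for SLC7A5 (0.01). PSAT1 (-0.02), PSPH (0.05) and SLC3A2 (0.03) did not pass. Under spike-in scaling ASNS and SLC7A11 alone passed (-1.51 and -1.56), and the other 5 had adjusted p between 0.072 and 0.31. These 5 kept their direction there, at -0.58 for MTHFD2, -0.52 for SHMT2, -0.49 for SLC1A5, -0.36 for PHGDH and 0.54 for SLC7A5. The calls of PHGDH and SLC7A5 were also lost without si-CPSF6 0 h replicate 1 (-0.42 and 0.36) or si-NC 0 h replicate 2 (-0.40 and 0.33). That of PHGDH was lost as well in TPM (-0.36, adjusted p = 0.062) and with limma run without trend and robust settings (adjusted p = 0.06).

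Most of that difference lay between 3 h and 6 h, a step tested after the values had been seen. In si-NC cells 8 of the 10 genes were higher at 6 h than at 3 h and PSPH was lower, beside 48.5% of all genes called, 29.1% higher and 19.3% lower. ASNS was 3.29-fold higher (log2 1.72, adjusted p = 3.4e-07), SLC7A11 3.84-fold (1.94, 1.7e-09), SLC1A5 2.15-fold (1.10, 6.8e-07), MTHFD2 1.90-fold (0.93, 1.2e-06), SHMT2 1.79-fold (0.84, 3.2e-07) and PHGDH 1.59-fold (0.67, 1.4e-05). These 6 passed and were higher on each of the 4 scales, with values by spike-in of 1.45, 1.67, 0.83, 0.65, 0.57 and 0.39 in the same order. PSAT1 (0.30) and SLC3A2 (0.25) passed as deposited and not by spike-in (0.03 and -0.02), and SLC7A5 did not pass (0.14, adjusted p = 0.17; -0.14 by spike-in).

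In si-CPSF6 cells the same step was small. As deposited 6 genes were higher and PSPH was lower, beside 34.1% of all genes called (22.2% higher and 11.9% lower). The higher share of calls was 65% there and 60.1% in si-NC cells as deposited, 0.566% and 19.7% by spike-in, and 8.94% and 26% in TPM. Among the 10 genes the largest change was 0.47 for SLC7A5 (adjusted p = 0.00045). ASNS, SLC7A11 and SLC1A5 had steps of 0.11, 0.14 and 0.14 that did not pass (adjusted p = 0.56, 0.27 and 0.28). By spike-in and in TPM PSPH alone passed, and 5 genes, ASNS, PHGDH, MTHFD2, SLC7A11 and SLC1A5, turned below 0 without passing. As deposited PHGDH (0.25) lost its call without any single 3 h or 6 h si-CPSF6 library, MTHFD2 (0.30) without 3 h replicate 2 (0.25) or 6 h replicate 1 (0.26), and PSPH (-0.32) without 3 h replicate 2 (-0.26) or 6 h replicate 1 (-0.18).

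The difference of the step, si-CPSF6 minus si-NC, passed for 6 genes, all lower, beside 15.3% of all genes called, 7.84% higher and 7.47% lower. It was -1.80 ± 0.14 for SLC7A11, -1.60 ± 0.19 for ASNS, -0.96 ± 0.14 for SLC1A5, -0.62 ± 0.13 for MTHFD2, -0.51 ± 0.10 for SHMT2 and -0.42 ± 0.12 for PHGDH. SLC7A5 went the other way at 0.34 (adjusted p = 0.052; 0.0055 with replicates paired). Pairing the replicates also took the count over all genes to 3189, against 1981 without it. PHGDH (adjusted p = 0.03) lost its call on leaving out any of 6 libraries (adjusted p up to 0.14) and with SHMT2 under spike-in scaling (0.21 and 0.097). The step call of PHGDH was lost as well in TPM (-0.41, adjusted p = 0.052) and with limma run without trend and robust settings (adjusted p = 0.11). MYC, low at both times in si-NC cells as given above, differed there by 0.27 between 6 h and 3 h as deposited (adjusted p = 0.28) and by -0.005 by spike-in.

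**Figure D4:**
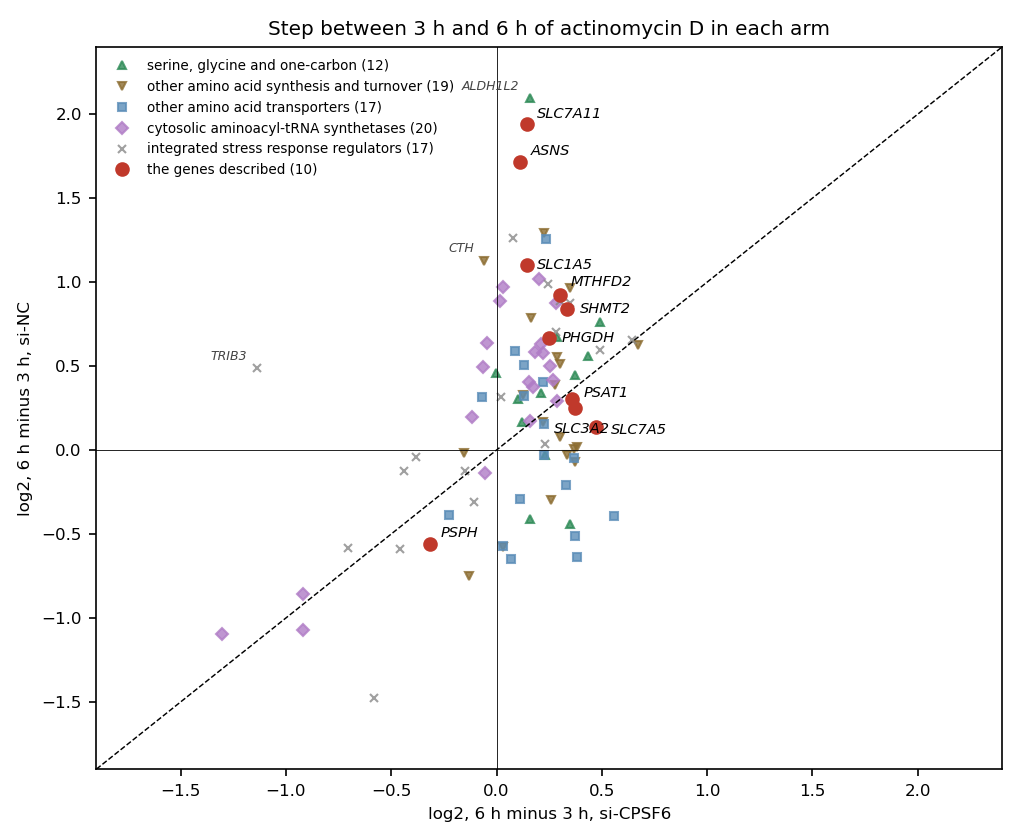
Log2 step from 3 h to 6 h in si-CPSF6 (x axis) against the same step in si-NC (y axis), with the 10 genes as large red points, other gene groups in smaller symbols with their numbers in the legend, and a dashed line of equality. SLC7A11, ASNS, SLC1A5, MTHFD2, SHMT2 and PHGDH lie above the line, and SLC7A5 lies below it.

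ATF4 mRNA also stepped up between 3 h and 6 h in si-NC cells. It had 7807 and 8175 normalized counts at 6 h in si-CPSF6 cells against 14534 and 13385 in si-NC cells, and at 0 h 7947 and 7254 in si-CPSF6 cells against 7949 and 7236 in si-NC cells. At 0 h the arms did not differ beyond their spread (log2 0.00 ± 0.08, adjusted p = 0.99). Its 3 h to 6 h step was 0.88 in si-NC cells (adjusted p = 3.6e-07; 0.60 by spike-in) and 0.35 in si-CPSF6 cells, and the difference of the step was -0.53 (adjusted p = 0.0044; 0.099 by spike-in, at -0.58). Of 17 tested regulators of the same stress response, ATF4 included, 6 were higher and 4 lower over the step in si-NC cells (4 and 4 by spike-in), beside 29.1% higher and 19.3% lower of all genes, so these counts are near the background. Over the full 6 h as deposited, 10 of the 17 were lower and 5 higher in si-NC cells (median -0.865, against 0.305 for all genes). Of all genes, 30.7% were lower and 48.6% higher there. In si-CPSF6 cells 10 were lower and 2 higher (median -1.102, against 0.354), beside 27.6% lower and 49.8% higher of all genes. TRIB3, a pseudokinase induced by ATF4, was 0.67 higher at 0 h with silencing (adjusted p = 3.5e-05). In si-NC cells TRIB3 had 405 and 357 normalized counts at 6 h, against 2123 and 1984 at 0 h. JDP2, a basic leucine zipper factor, and EIF4EBP1, a repressor of cap-dependent translation, were higher over the step in si-NC cells by 1.26 and 0.89.

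Other genes of amino acid metabolism were read from lists given as counts. Of 20 cytosolic aminoacyl-tRNA synthetases, which load amino acids on tRNAs, 15 were higher and 3 lower over the 3 h to 6 h step in si-NC cells (median 0.454, against 0.092 for all genes), beside 29.1% higher and 19.3% lower of all genes, and 5 were higher and 3 lower by spike-in. AARS1 (1.02), CARS1 (0.97) and KARS1 (0.89) were among the higher and FARSA (-1.07) among the lower. At 6 h 17 of the 20 were lower and 2 higher in si-CPSF6 cells than in si-NC cells (median -0.445, against -0.025 for all genes), beside 28.6% lower and 27% higher of all genes. The 6 h change differed between the arms for 11 of the 20, all lower in si-CPSF6 cells, beside 24.4% of all genes called and 12.4% lower, and for 3 by spike-in, with KARS1 (-1.02), CARS1 (-0.96), AARS1 (-0.85) and YARS1 (-0.66) first.

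Of 12 further genes of serine, glycine and folate metabolism, 8 were higher and 2 lower over the si-NC step (1 and 2 by spike-in), beside 29.1% higher and 19.3% lower of all genes. ALDH1L2, the mitochondrial enzyme that oxidises formyl-folate, had the widest step at 2.10, and it rested on 125 and 89 counts at 6 h against 26 and 22 at 3 h. At 0 h MTHFD1 (-0.51) was lower and MTHFD1L (0.54) and SFXN1 (0.39), a mitochondrial serine carrier, were higher with silencing; SFXN1 lost its call by spike-in (0.25, adjusted p = 0.23). Of 19 other synthesis and turnover genes, 9 were higher and 3 lower over the si-NC step (median 0.166, against 0.092 for all genes), beside the same 29.1% and 19.3% of all genes. The counts by spike-in were 4 and 3, beside the same 834 and 3390 of all genes. GPT2, the mitochondrial alanine transaminase, was 1.20 higher at 0 h with silencing (adjusted p = 1.4e-06) and stepped up by 1.29 in si-NC cells. PYCR1, a proline synthesis enzyme, stepped up by 0.96, and GLUL, the glutamine synthetase, was lower (-0.75).

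Of 17 other amino acid transporter genes tested, 5 were higher and 5 lower over the si-NC step (median -0.045, against 0.092 for all genes), beside 29.1% higher and 19.3% lower of all genes, and by spike-in 1 and 6. The arms differed in the 6 h change for 6 of them, with 5 higher in si-CPSF6 cells and 1 lower, beside 24.4% of all genes called (12% higher and 12.4% lower). SLC36A1 (1.11), SLC38A3 (0.79) and SLC7A6 (0.56) were higher there. The arginine carriers SLC7A1 (0.59) and SLC7A2 (1.26) stepped up in si-NC cells. At 0 h SLC43A1 (-1.58) and SLC38A3 (-0.83) were lower and SLC43A2 (0.76) and SLC7A1 (0.52) higher with silencing.

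Apparent transcript length, read as the ratio of normalized count to TPM and centred in each library, was compared at 0 h. Of the 10 genes, PSAT1 (0.09), SHMT2 (0.10), SLC7A5 (0.09) and SLC1A5 (0.11) were longer in si-CPSF6 cells and MTHFD2 (-0.17) was shorter, beside 38.5% of all 10542 genes called, 31.7% longer and 6.74% shorter. The median of all genes was 0.078 on the log2 scale, so that the 4 longer genes sat near it, while MTHFD2 stood at the 12.1 percentile. MTHFD2 had -0.36 and -0.32 in si-CPSF6 libraries at 0 h against -0.18 and -0.15 in si-NC libraries (adjusted p = 0.023), and at 3 h -0.28 and -0.24 in si-CPSF6 libraries against -0.02 and -0.16 in si-NC libraries. Its call was lost on leaving out any single 0 h library, and that of SLC1A5 without si-CPSF6 replicate 2 (0.095, adjusted p = 0.064). In a fit of the 0 h libraries alone, 2 of the 10 were called, SHMT2 and MTHFD2.

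Across the 12 libraries each gene's log2 values were set beside those of 10375 other genes, as a description over points that share arms, times and scaling. The nearest gene to MTHFD2 and to SLC1A5 was GPT2 (Pearson r = 0.9904 and 0.9848), and PYCR1 was nearest to SHMT2 (0.9957). MTHFD2 and SLC1A5 were also each other's nearest of the 10 genes (0.97). Of the others reported, the nearest genes were MDH1 for PSAT1 (0.9952), GUSB for PHGDH (0.9944), LMO7 for PSPH (0.9737), HSDL2 for SLC7A11 (0.9922), TGOLN2 for SLC7A5 (0.9881) and POLE3 for SLC3A2 (0.9873). PSPH had a negative r with each of the other 9 genes, of which the one nearest 0 was -0.095 with PSAT1. Pseudogene copies are annotated for several of the genes. SLC7A5P2, chosen after its values were seen, had 0 to 0.523% of the SLC7A5 count in a library, and other copies are not reported here.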

How the data were processed

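Strand-specific poly(A) RNA libraries came from 12 HepG2 samples, with ERCC spike-in RNA added to 5 µg of total RNA. STAR, RSEM and hg38 are named in the submitters' processing notes, with no versions and no annotation release. One deposited gene table holds scores, which per the file's values are the authors' counts brought to one upper quartile and stored as whole numbers, so no count test was used and limma replaced it. The second deposited table holds TPM. The depth in reads is unknown. The 87 spike-in entries were kept out of the tests.

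Symbols came from a gene name table for 22069 of 22148 genes, and positions from GENCODE 29. Log2(value + 1) of the 12939 genes with a mean of at least 20 was fitted with limma 3.58.1 (R 4.3.3, trend and robust settings) on 6 group means, with Benjamini-Hochberg adjustment over all genes and a threshold of 0.05. Folds are on this scale, which understates changes of low values, most of all in TPM. With 2 biological replicates a group, each gene has 6 residual degrees of freedom shared by all groups. The p-values also rest on limma's moderated variance, which draws on the spread of all genes tested. Alternatives changed the pseudocount (0.1 or 10), the filter (none, or a mean of at least 100), the scaling (median ratio, spike-in or the TPM table with a mean of at least 1), the limma settings, the replicate block, the groups in the fit and the libraries, left out singly. In simulated data for the 0 h comparison on 12939 genes, 94% of genes changed by 1 on the log2 scale were recovered. Of those changed by 0.5 68% were recovered and of those changed by -0.5 58%, and 7.1% of calls were false. Only 200 genes were changed there, with a single assumed dispersion and libraries drawn independently. The real comparisons called far more genes and their libraries deviated together, so these rates hold for the simulated setting only.

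Same-numbered libraries deviated together from their group means in all 15 pairs of groups (correlation 0.108 to 0.236). The labels name no shared day, so a pairing by replicate number rests on the values alone. The main fit had no replicate term, and pairing entered only the replicate block alternative, given above as replicates paired. Sequences were read with Python 3.11.15. The members and the gene lists were chosen with earlier results of these data known. Named genes were the 10 members, CPSF6, ATF4, the gene most correlated with each member, and, of each list, up to 4 genes with the smallest p in a comparison, given here for the 0 h comparison, the 3 h to 6 h step in si-NC cells and the difference of the 6 h change. The 3 h to 6 h comparisons were added after the values were seen. Some genes that this rule or the marker lists name are not reported here.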

Additional observations from a re-analysis of the deposited data

Results flagged for a closer look

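The change over 6 h of actinomycin D differed between the si-CPSF6 arm and the si-NC arm, by the test of the difference itself, for 7 of the 10 genes, beside 24.4% of all genes called. The difference of the log2 change, si-CPSF6 minus si-NC, was -1.614 for ASNS, -1.665 for SLC7A11, -0.684 for MTHFD2, -0.622 for SHMT2, -0.592 for SLC1A5, -0.462 for PHGDH and 0.440 for SLC7A5. Of these 7, only ASNS and SLC7A11 passed under spike-in scaling. Between 3 h and 6 h the step differed for 6 genes, beside 15.3% of all genes called. It differed by -1.605 for ASNS, -1.795 for SLC7A11, -0.961 for SLC1A5, -0.623 for MTHFD2, -0.506 for SHMT2 and -0.416 for PHGDH. Of these 6, SHMT2 and PHGDH did not pass under spike-in scaling. Beside these, ATF4 mRNA differed between the arms by -0.81 in the 6 h change and by -0.53 in the step, and its part in the result was not tested.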

How the results depend on the processing

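Of 2160 values of single genes under the alternatives, 2009 kept their direction and side of the threshold, 81 lost a call, 10 gained one and 60 changed sign, 5 of these with a call on both sides. Spike-in scaling and TPM turned the 6 h change in si-CPSF6 cells for ASNS (-0.247 and -0.175), MTHFD2 (-0.292 and -0.324), SLC7A11 (-0.222 and -0.109), SLC3A2 (-0.260 and -0.156) and SLC1A5 (-0.341 and -0.239). In si-NC cells they turned SLC7A5 (-0.223 and -0.139), SLC3A2 (-0.390 and -0.263) and, by spike-in, PSAT1 (-0.037). Over the 3 h to 6 h step in si-CPSF6 cells they turned ASNS (-0.212 and -0.163), PHGDH (-0.076 and -0.027), MTHFD2 (-0.023 and -0.031), SLC7A11 (-0.181 and -0.099) and SLC1A5 (-0.182 and -0.133). In si-NC cells they turned SLC7A5 (-0.137 and -0.174), SLC3A2 (-0.024 and -0.020) and, in TPM, PSAT1 (-0.002). The remaining turns were of differences that passed on neither side: PSAT1 in the difference of the 6 h change (0.079 and 0.101) and of the step (0.000 by spike-in), SLC3A2 at 6 h by spike-in (-0.026) and at 0 h by median-ratio scaling (0.020), and PHGDH at 3 h in TPM (0.011).

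Spike-in scaling left 3 and 6 of the 10 genes called in the 6 h change of si-CPSF6 and si-NC cells, 2 in its difference and 1 in the si-CPSF6 step, and TPM left 4 in the si-CPSF6 change and 1 in its step. Over all genes the difference of the 6 h change had 1130 calls by spike-in and 1553 in TPM, the si-CPSF6 step 2475 and 2294, and the difference of the step 604 and 919. Limma without trend and robust settings left 4 of the 10 genes in the si-CPSF6 step, where calls over all genes stayed within 1.5 times the 4408 of the main fit. The replicate block gave 3189 calls in the difference of the step and changed the calls of ASNS, SHMT2, MTHFD2 and SLC7A5 named above, and no other call of the 10 genes. The length comparison on its own groups had 2151 calls, 2 of them among the 10 genes. The cause of these changes was not tested, and the last uses fewer libraries.

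With 1 library left out at a time, the difference of the 6 h change had 2017 to 3134 calls, the lowest without si-CPSF6 0 h replicate 1, against 3153 with all libraries. Of the 10 genes, 4 to 7 were called in the si-CPSF6 step, 4 without its 3 h replicate 2 or 6 h replicate 1, and 3 to 5 in the length comparison, 3 without si-CPSF6 0 h replicate 2. The signs that changed were those of differences that had not passed: at 0 h PHGDH (-0.119 to 0.014), SLC7A5 (-0.155 to 0.060) and SLC3A2 (-0.078 to 0.035), at 3 h PHGDH (-0.198 to 0.002) and SLC7A5 (-0.002 to 0.111), and at 6 h SLC3A2 (-0.063 to 0.072) and SLC1A5 (-0.005 to 0.264). In the difference of the 6 h change they were PSAT1 (-0.100 to 0.050), PSPH (-0.081 to 0.183) and SLC3A2 (-0.042 to 0.093), in that of the step PSAT1 (-0.022 to 0.127), and in length ASNS (-0.040 to 0.066), PHGDH (-0.002 to 0.046), PSPH (-0.016 to 0.098) and SLC7A11 (-0.004 to 0.080).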
